A study of Arabidopsis thaliana with 9 samples.

Results

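Roots of 2 transgenic Arabidopsis thaliana genotypes were compared together with roots of wild-type plants, to describe which genes changed in the same way whichever transgene was present. The genotypes were 35S:rMYB83, which overexpresses a form of MYB83 that miR858 cannot target, 35S:miR858, which overexpresses the microRNA, and Col-0, the wild-type accession. Each had 3 libraries of mRNA sequencing from root tissue of 2-week-old plants grown in long days. All 9 of the 9 libraries of the series were used: the mean of the 35S:rMYB83 mean and the 35S:miR858 mean (6 libraries) was set against the Col-0 mean (3 libraries) in a single fit, and the difference between the lines was estimated for every gene beside it. No value was used to choose libraries, and all tested genes are members of the comparison. Both constructs are driven by 35S, a constitutive viral promoter that is active in most plant tissues, so neither transgene is limited to the cells in which the native gene is active. The number of independent transformants, the number of plants behind a library and the growth medium are not stated in the sources used here. The labels give the replicates as separate samples without saying whether they came from separate plants or cultures, so p-values reflect the spread among these samples alone, which may be technical. Libraries are numbered by the replicate number of their label.

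MYB83 is a transcription factor that, with its close relative MYB46, switches on the genes of secondary wall formation in xylem. miR858 is a plant microRNA that directs the cleavage of mRNAs of R2R3-MYB transcription factors, MYB83 among them, and its best-known targets in Arabidopsis activate flavonoid genes. Roots also take up nitrate, ammonium, sulphate and phosphate through transporters, and many of their genes are switched on when the nutrient is short. Another group of genes is switched on soon after nitrate is supplied. The groups can share genes, so the split into an uptake list and a nitrate-induced list is partly a matter of choice. These nutrient genes are described first, followed by the wall, water-channel, clock and stress genes.

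The libraries held between 5313656 and 10648857 reads counted in genes, the smallest being 35S:rMYB83 library 1. Of 28775 loci listed, 19496 passed the filter on low counts and were tested. Reads outside annotated genes made up 4.42% to 5.96% of the libraries of both lines and 3.62% to 4.23% of those of Col-0. Transcripts of 19 photosynthesis genes, used as markers of green shoot tissue, summed to 796 to 7947 CPM, counts scaled to the same library size, in the lines and 692 to 4092 CPM in Col-0, highest in 35S:rMYB83 library 1 and Col-0 library 1. Markers of root cell types were all detected, with none at 0. Their summed levels in the 6 line libraries against the 3 Col-0 libraries were 250 to 350 against 169 to 317 CPM for xylem, 303 to 396 against 337 to 492 CPM for phloem and 254 to 424 against 306 to 441 CPM for root hairs. They were 235 to 351 against 163 to 264 CPM for endodermis, 11.0 to 16.8 against 9.99 to 13.1 CPM for root cap and 106 to 131 against 98.8 to 141 CPM for dividing cells. All 7 ranges overlapped between the lines and Col-0. In bulk roots fewer cells of a type and less RNA per cell cannot be told apart.

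MIR858a was detected in its own line only, while MYB83 was detected in every library and was high in its own line. Reads of the MIR858a precursor (AT1G71002, chr1:26773539-26773725 in TAIR10.1) came to 0, 0 and 0 CPM in 35S:rMYB83, 14.4, 25.6 and 24.4 CPM in 35S:miR858, against 0, 0 and 0 CPM in Col-0. The 547 reads in 35S:miR858 put its level at least 222-fold higher than Col-0, and at least 160-fold higher than 35S:rMYB83, when a group at 0 is set to a floor of 3 counts over the group. The mature miR858a lies on the minus strand at chr1:26773695-26773715, and its RefSeq sequence is shown because it is the product of 1 of the constructs, with the seed (bases 2 to 8) in capitals.
miR858a: uUUCGUUGucuguucgaccuu
MYB83 (AT3G08500, chr3:2576444-2578276) had 134, 97.9 and 102 CPM in 35S:rMYB83, 1.56, 1.53 and 1.5 CPM in 35S:miR858, against 0.947, 2.17 and 0.722 CPM in Col-0. The level of MYB83 was high in the 3 libraries of 35S:rMYB83 alone, and the libraries of 35S:miR858 lay within the range of Col-0. Its log2 fold change over Col-0 was 6.39 in 35S:rMYB83 and 0.22 in 35S:miR858, and its average over both lines, 3.3 ± 0.30 (SE; adjusted p = 6.7e-05), therefore describes no shared change (adjusted p = 0.0643 with both lines fitted as 1 group). Counts do not tell reads of the native MYB83 transcript from those of the transgene.

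Many root genes differed from wild type in the average of both lines, with more and larger falls than rises. At an adjusted p under 0.05 (edgeR's quasi-likelihood test, Benjamini-Hochberg adjustment over 19496 genes), 2129 genes were higher, 10.9% of those tested, and 2783 were lower, 14.3%, which makes 4912 genes or 25.2%. The lower group held more large changes: 1096 genes were at least 2-fold lower and 489 at least 2-fold higher, with a median log2 fold change of -0.82 among called lower genes and 0.57 among called higher ones. Changes of single genes are given as log2 fold changes, with positive values higher in the lines. The split depended on the scaling. When libraries were scaled by their total gene counts alone, 1233 genes were higher and 4274 lower, a share of 22.4% higher against 43.3%, and the median of all genes moved to -0.127, against -0.00396 under the scaling used here. The 18S rRNA locus, which enters those totals, took 12.3% ± 1.52 of gene counts in the lines (SD, n = 6; 10.4% to 14.3%) and 9.67% ± 2.03 in Col-0 (SD, n = 3; 7.36% to 11.2%), with an exact two-sided permutation p of 0.0952, and its part in the counts was not tested. Without Col-0 library 2 the higher group held 1389 genes. Fitted with both lines as 1 group, 1696 genes were higher and 2302 lower.

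The lines themselves differed in fewer genes. Between 35S:rMYB83 and 35S:miR858, 789 genes differed, 4.05% of those tested, of which 488 were higher in 35S:rMYB83 and 301 higher in 35S:miR858. Of the 2129 genes higher in the average, 194 also differed between the lines, and of the 2783 lower genes, 227 did. The 95% interval of the line difference lay wholly within 1 log2 unit of 0 for 1702 of the higher genes (79.9%) and for 1830 of the lower genes (65.8%), against 77.2% of all tested genes, so the narrow interval is not particular to the genes called. The median absolute line difference was 0.24 among called genes and 0.18 among all tested genes. Both line means lay on the same side of Col-0 for 177 of the 194 and 206 of the 227, and on opposite sides for 17 and 21. Without 35S:miR858 library 2, 35S:rMYB83 library 1 or 35S:rMYB83 library 2, only 238, 313 and 263 genes were higher in 35S:rMYB83, 84, 96 and 102 were higher in 35S:miR858, and 168, 228 and 193 were called both in the average and between the lines, against 421 with all libraries. Leaving out 35S:miR858 library 3 left 308 genes higher in 35S:rMYB83, and leaving out 35S:rMYB83 library 3 left 180 higher in 35S:miR858. Without Col-0 library 2, 2982 genes were called in the average alone, against 4491, and 2348 of those called had the narrow interval. The distance from Col-0 was the larger in 35S:miR858 for 1564 of the 2129 higher genes and 1726 of the 2783 lower genes. Both lines are set against the same 3 Col-0 libraries, so a chance shift in Col-0 enters both distances alike.

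**Figure D1:**
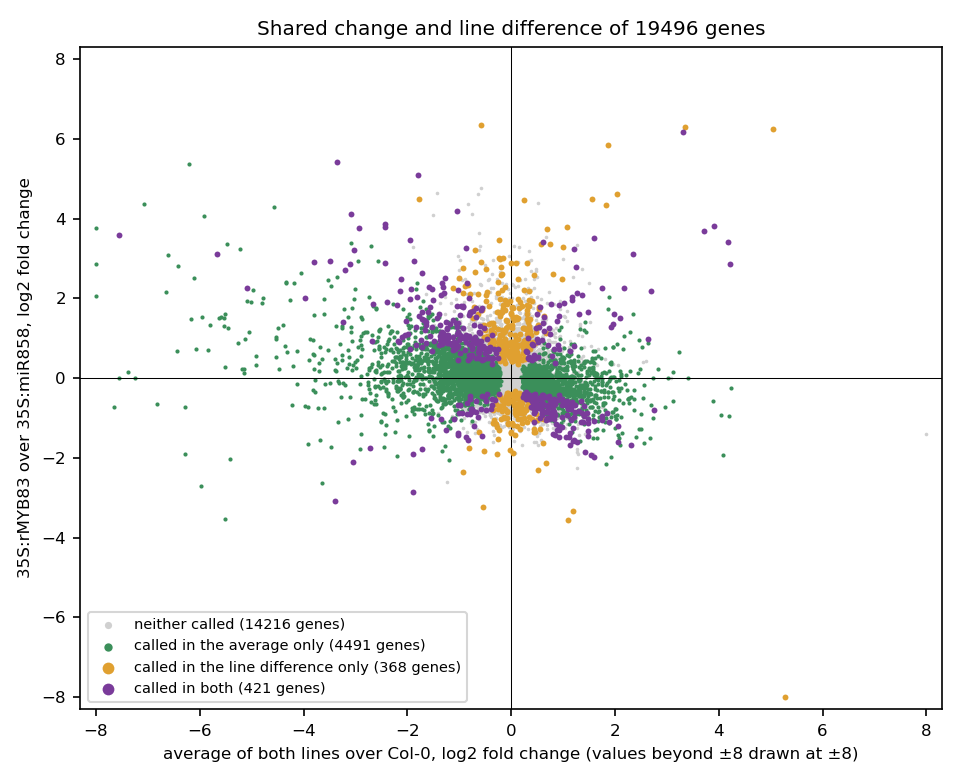
Each point is a tested gene, with the average log2 fold change of both lines over Col-0 on the horizontal axis and the log2 difference of 35S:rMYB83 over 35S:miR858 on the vertical axis, and values beyond 8 drawn at 8. Of the 4912 genes called in the average, 421 also differed between the lines, and most called genes lie near a line difference of 0.

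A count on single libraries, with no model, gave 4467 genes (22.9%) in which the 6 line libraries did not overlap the 3 of Col-0. They were 1987 genes with the lines above (10.2%) and 2480 with the lines below (12.7%). Of the genes called in the average, 1644 of the higher and 2160 of the lower were among them. Fewer libraries are easier to separate, but the counts also depended on which Col-0 library was left out. Without Col-0 library 1, 3250 genes lay above and 3808 below. The counts were 2496 and 2928 without Col-0 library 2, and 2595 and 2890 without Col-0 library 3. What sets Col-0 library 1 apart here was not tested.

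Most genes of nitrogen uptake fell in the lines. Of 18 tested transporters and related genes for nitrate, ammonium, urea and amino acid uptake, 13 were lower in the lines, 1 was higher and 4 did not pass, with a median log2 fold change of -1.56 against -0.00396 for all tested genes. Among all tested genes, 14.3% were lower and 10.9% higher. NRT2.5 (AT1G12940, chr1:4416315-4418590), a high-affinity nitrate transporter induced by nitrogen starvation, had 0, 0.244 and 0 CPM in 35S:rMYB83, 0, 0 and 0 CPM in 35S:miR858, against 135, 217 and 182 CPM in Col-0. Its transcripts were almost absent from every line library and abundant in every Col-0 library, with 2 reads in the 6 line libraries against 5478 in the 3 of Col-0. The level was 4222-fold lower in the lines (exact 95% counting interval 1168 to 34875, covering counting error only; adjusted p = 1.5e-06), and at least 1501-fold lower in 35S:miR858, where no read was found. NRT2.4 (AT5G60770, chr5:24444365-24447127), another starvation-induced transporter, had 0.567, 0.489 and 1.47 CPM in 35S:rMYB83, 0.12, 0 and 0 CPM in 35S:miR858, against 8.52, 15.1 and 16.3 CPM in Col-0, an average of -5.92 ± 0.43 (SE; adjusted p = 1.9e-05). Both lines lay far below Col-0 with no overlap, with 20 reads in 35S:rMYB83 and 1 in 35S:miR858. The line difference of NRT2.4 did not pass in the fit used here, but did under some other settings, among them DESeq2 (4.36, adjusted p = 0.0151). The urea transporter DUR3 (AT5G45380, chr5:18390942-18395928) had 20.4, 34.3 and 27 CPM in 35S:rMYB83, 24.5, 22 and 20.5 CPM in 35S:miR858, against 214, 702 and 462 CPM in Col-0. The lines did not overlap Col-0, and the average was -4.21 ± 0.30 (SE; adjusted p = 1.9e-05) with a line difference of 0.3 (95% interval -0.54 to 1.14).

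Ammonium transporters fell together. AMT1;5 had 0.189, 0.367 and 0 CPM in 35S:rMYB83, 0, 0 and 0 CPM in 35S:miR858, against 8.52, 43.1 and 24.4 CPM in Col-0, which is at least 213-fold lower in 35S:miR858 than in Col-0. The average log2 fold change of the others was -2.89 (adjusted p = 0.00019) for AMT1;1, -2.0 (adjusted p = 0.0021) for AMT1;2, -1.6 (adjusted p = 0.00085) for AMT1;3 and -0.86 (adjusted p = 0.003) for AMT2, each with the line libraries below all of Col-0. NRT3.1, the partner protein of the NRT2 transporters, fell by 2.2 ± 0.26 (SE; adjusted p = 0.0003). LHT1, an amino acid importer, had 79.2, 87.2 and 99.3 CPM in 35S:rMYB83, 166, 157 and 138 CPM in 35S:miR858, against 227, 405 and 376 CPM in Col-0, with an average of -1.53 ± 0.16 (SE; adjusted p = 0.00015). The 3 groups did not overlap. The line difference of LHT1 did not pass in the fit used here, but did under some other settings. Among them were DESeq2 (-0.80, adjusted p = 0.0024) and leaving out Col-0 library 1 (-0.79, adjusted p = 0.0044). NRT2.1, the main high-affinity nitrate transporter of roots, was uneven, with 32.1, 108 and 273 CPM in 35S:rMYB83, 5.64, 2.05 and 2.04 CPM in 35S:miR858, against 212, 196 and 245 CPM in Col-0. It was near 0 in 35S:miR858 only, and 35S:rMYB83 library 3 lay above all Col-0 libraries. Its line difference was 5.42 (95% interval 3.72 to 7.11, adjusted p = 0.0046). The dual-affinity transporter and nitrate sensor NPF6.3 was the only member that rose, by 1.17 ± 0.23 (SE; adjusted p = 0.0055), with 57.3, 102 and 58.9 CPM in 35S:rMYB83, 21.9, 18.9 and 15.8 CPM in 35S:miR858, against 12.1, 17.2 and 20.5 CPM in Col-0. 35S:rMYB83 lay above all of Col-0, while 35S:miR858 overlapped it, and the line difference was 1.95 (95% interval 1.37 to 2.53, adjusted p = 0.0041). Fitted with both lines as 1 group, no member of the list was higher.

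Most genes on a list of nitrate-induced genes moved the other way. Of 20 tested, 12 were higher, 2 were lower and 6 did not pass, beside 10.9% higher and 14.3% lower of all tested genes. The median log2 fold change was 0.54. The 12 that rose include the repressors of nitrogen responses LBD37, LBD38 and LBD39, the nitrate-responsive regulators HRS1, BT1 and BT2, the kinase genes CIPK3 and CIPK23, nitrite reductase NIR1 and the genes UPM1, RFNR1 and G6PD2 that serve its reducing power and cofactor. LBD38 (AT3G49940, chr3:18514266-18516131) had 111, 103 and 104 CPM in 35S:rMYB83, 90.3, 110.0 and 116 CPM in 35S:miR858, against 39.3, 22 and 38.8 CPM in Col-0. All line libraries lay above all Col-0 libraries, and the average was 1.67 ± 0.18 (SE; adjusted p = 0.00019) with a line difference of 0.01 (95% interval -0.42 to 0.43). HRS1 had 98.5, 110.0 and 96.9 CPM in 35S:rMYB83, 96.8, 113 and 94.1 CPM in 35S:miR858, against 51.3, 33.8 and 51.2 CPM in Col-0, an average of 1.16 ± 0.14 (SE; adjusted p = 0.00034), again without overlap. LBD39 rose by 1.42 ± 0.22 (SE; adjusted p = 0.0014). Of the 2 lower members, GLN1;4 (AT5G16570, chr5:5421589-5424749) fell the furthest. It is a glutamine synthetase gene of low-nitrogen roots, so its place on a nitrate-induced list is doubtful. GLN1;4 had 6.24, 8.31 and 6.23 CPM in 35S:rMYB83, 3.72, 7.29 and 6.99 CPM in 35S:miR858, against 128, 351 and 231 CPM in Col-0. Its average was -5.19 ± 0.30 (SE; adjusted p = 7e-06), and the lines differed by 0.21 (95% interval -0.73 to 1.16). NIA2, a nitrate reductase gene, fell by 0.59 ± 0.14 (SE; adjusted p = 0.013), with 35S:miR858 below Col-0 and 35S:rMYB83 overlapping it. Without Col-0 library 3, and with both lines fitted as 1 group, only 1 member of this list was lower.

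Sulphur deficiency genes fell almost without exception. Of 18 tested, 17 were lower, none was higher and 1 did not pass, with a median log2 fold change of -2.19, and in 16 of them the lines did not overlap Col-0. Among all tested genes, 14.3% were lower, 10.9% were higher and 12.7% had the lines wholly below Col-0. The 1 that did not pass was SLIM1, the transcription factor that activates the others when sulphur is short, at -0.04 (adjusted p = 0.82). LSU1 (AT3G49580, chr3:18374908-18375940), which belongs to a small family named for its response to low sulphur, had 3.97, 1.71 and 0.907 CPM in 35S:rMYB83, 0.959, 0.384 and 0.967 CPM in 35S:miR858, against 69.6, 79.4 and 64.4 CPM in Col-0. The lowest Col-0 library was far above the highest line library, and the average was -5.81 ± 0.27 (SE; adjusted p = 2.4e-06). SDI1, a repressor of glucosinolate synthesis under sulphur shortage, and LSU3 had averages of -5.45 (adjusted p = 1e-05) and -4.53 (adjusted p = 1e-05).

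The sulphate transporters and assimilation enzymes fell by less. SULTR4;1 (AT5G13550, chr5:4355276-4359692), which exports sulphate from the vacuole, had 49.9, 47.4 and 46.8 CPM in 35S:rMYB83, 44.7, 47.3 and 48.3 CPM in 35S:miR858, against 154, 163 and 189 CPM in Col-0. The spread within each genotype was small and the groups were well apart, with an average of -1.83 ± 0.08 (SE; adjusted p = 1.1e-06) and a line difference of 0.04 (95% interval -0.17 to 0.25). APR1 (AT4G04610, chr4:2324878-2327064), an adenosine phosphosulphate reductase at the control point of sulphate reduction, had 73.9, 67.6 and 61.2 CPM in 35S:rMYB83, 42.1, 41.3 and 39 CPM in 35S:miR858, against 201, 202 and 203 CPM in Col-0. Both lines lay below Col-0, 35S:miR858 the further, with an average of -1.94 ± 0.07 (SE; adjusted p = 6.7e-07) and a line difference of 0.73 (95% interval 0.53 to 0.92, adjusted p = 0.0028). APR3 and APR2 fell by 1.26 and 1.16, and the root uptake transporters SULTR1;1 and SULTR1;2 by 3.33 and 1.06 on the log2 scale, with adjusted p-values from 8.7e-06 to 0.0015. LSU4 had the largest line difference of the 4 members called in it, with 16.8, 15.8 and 11.1 CPM in 35S:rMYB83, 1.32, 1.15 and 0.537 CPM in 35S:miR858, against 13.3, 30.8 and 17.5 CPM in Col-0. That difference was 3.86 (95% interval 2.89 to 4.82, adjusted p = 0.0018). 35S:miR858 alone lay apart there, since 35S:rMYB83 overlapped Col-0. APR1 overlaps a gene on the opposite strand, and the sources used here do not say whether counting used strand, so reads of the pair cannot be told apart.

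**Figure D2:**
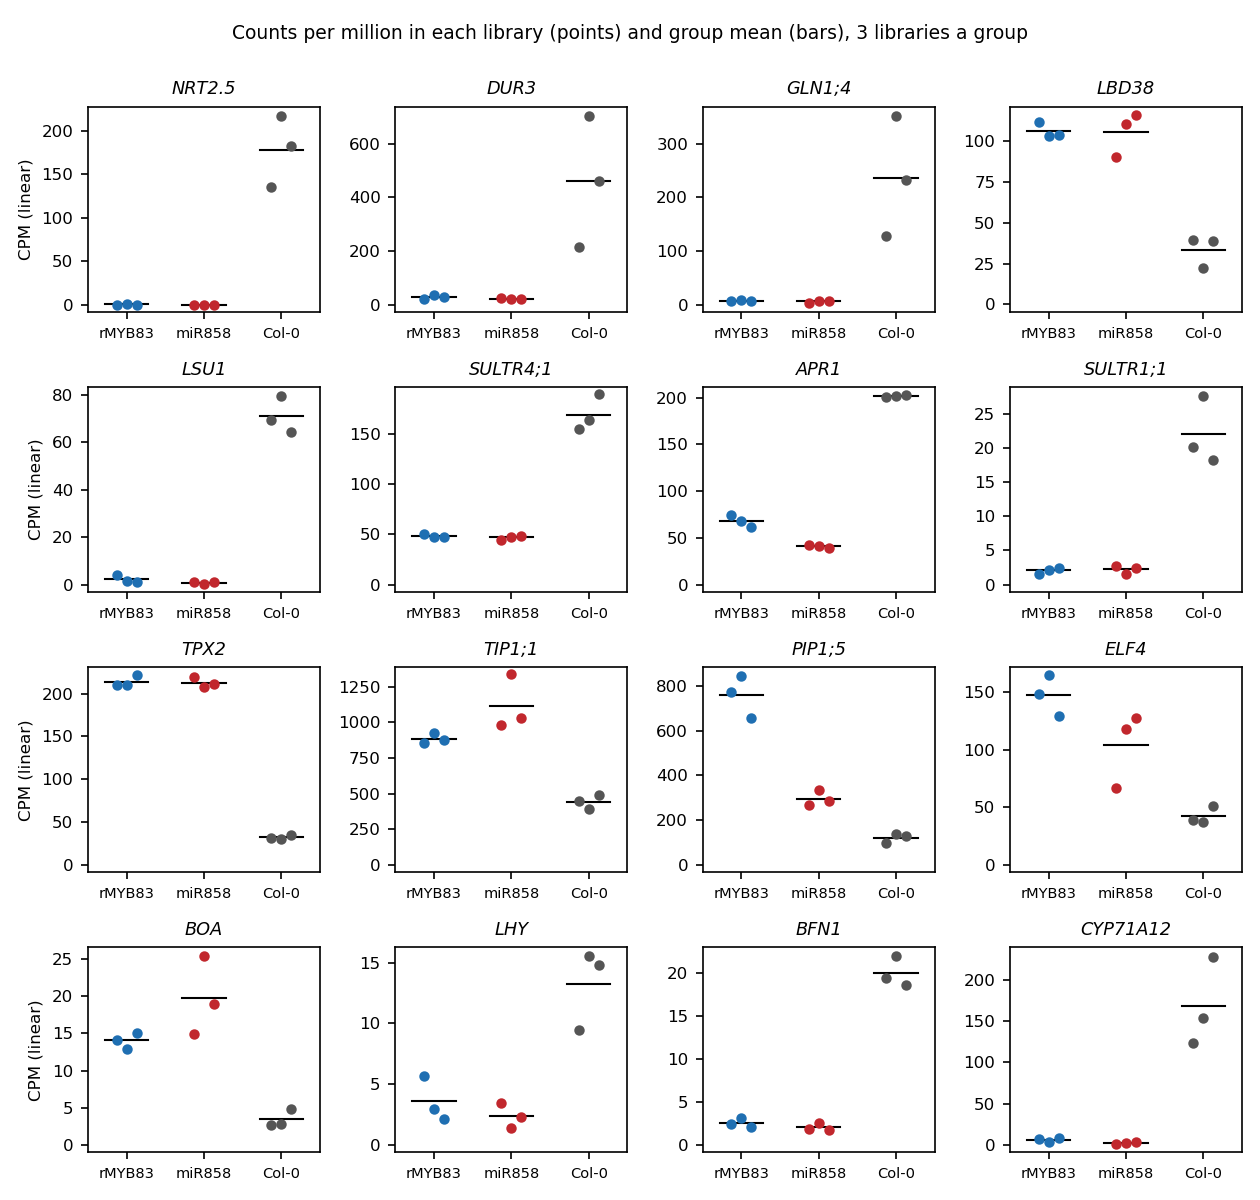
CPM on linear axes of 16 genes described in the text, each panel with its own scale, 35S:rMYB83, 35S:miR858 and Col-0 from left to right, a point for each library and a bar at each group mean. NRT2.5 lay at 0 to 0.244 CPM in the lines against 135 to 217 CPM in Col-0, and the lines lay above Col-0 for LBD38, TPX2, TIP1;1, PIP1;5, ELF4 and BOA and below it for the other 10 genes.

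Phosphate starvation genes moved in a small subset. Of 17 tested, 6 were lower, 1 was higher and 10 did not pass, with a median of -0.14, so the share that was lower stood above the 14.3% of all tested genes by a few genes only. Those that fell include enzymes that replace phospholipids by galactolipids. MGD2 and MGD3, which make galactolipids, had average changes of -1.84 (adjusted p = 0.00065) and -3.02 (adjusted p = 0.00067). NPC4, a phospholipase C, had 12.9, 12.1 and 8.5 CPM in 35S:rMYB83, 3.48, 4.73 and 5.48 CPM in 35S:miR858, against 12.1, 34.1 and 22.8 CPM in Col-0, with an average of -1.69 ± 0.29 (SE; adjusted p = 0.0022) and an overlap of Col-0 library 1 with 35S:rMYB83. GDPD1, a glycerophosphodiesterase gene, rose by 1.01 ± 0.18 (SE; adjusted p = 0.0027). The classical markers SPX1, SPX2, PHT1;4 and PAP17 did not pass. The promoter letters of the list were read because its members answer to PHR1, a transcription factor that binds the P1BS motif, GNATATNC (searched on both strands, on which it reads alike). In the 250 bases before the gene start P1BS occurred in 6 of the 17 tested members and in 4 of the 7 called, GDPD1, MGD2, NPC4 and PLDP2, against 5.42% of all tested genes with a promoter in the annotation. The promoters of MGD2 (chr5:6896213-6896462, plus strand) and NPC4 (chr3:845097-845346, minus strand) are printed from the RefSeq TAIR10.1 genome with the match in capitals.
MGD2: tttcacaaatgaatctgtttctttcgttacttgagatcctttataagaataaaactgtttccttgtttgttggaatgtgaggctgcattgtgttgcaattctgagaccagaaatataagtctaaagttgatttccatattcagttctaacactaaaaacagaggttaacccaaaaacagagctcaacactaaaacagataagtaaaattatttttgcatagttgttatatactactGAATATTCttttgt
NPC4: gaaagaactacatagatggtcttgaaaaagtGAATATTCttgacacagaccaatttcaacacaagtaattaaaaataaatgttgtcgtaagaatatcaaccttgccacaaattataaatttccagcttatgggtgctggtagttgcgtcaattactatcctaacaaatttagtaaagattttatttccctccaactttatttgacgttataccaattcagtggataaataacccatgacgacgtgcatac
In MGD2 the match starts at base -14 from the annotated gene start, and in NPC4 at base -219. The gene holding it rose in 1 case and fell in 3, and a match describes letters, not binding.

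Of 17 tested members of the iron deficiency and coumarin list, 2 were higher, 1 was lower and 14 did not pass. The higher count is near the 10.9% of all tested genes, and the lower count is below the 14.3%. FRO2, the root ferric reductase, had 210.1, 189 and 214 CPM in 35S:rMYB83, 135, 315 and 391 CPM in 35S:miR858, against 122, 53.8 and 79.8 CPM in Col-0. All 6 line libraries lay above Col-0 and the average was 1.49 ± 0.34 (SE; adjusted p = 0.01), although 35S:miR858 itself ranged widely. The lower one, F6'H1, an enzyme of coumarin synthesis, had 100.2, 95.9 and 96.3 CPM in 35S:rMYB83, 40.6, 56.7 and 55.4 CPM in 35S:miR858, against 96.3, 118 and 124 CPM in Col-0. It was lowest in 35S:miR858 and overlapped Col-0 in 35S:rMYB83, with a line difference of 0.94 (95% interval 0.63 to 1.25, adjusted p = 0.0057), and its average of -0.68 did not pass when both lines were fitted as 1 group (adjusted p = 0.144). Without 35S:miR858 library 1, 5 members of the list were higher, without Col-0 library 3 there were 2 lower and 1 higher, and without Col-0 library 2, 35S:miR858 library 2, 35S:miR858 library 3 or 35S:rMYB83 library 3 only 1 was higher.

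**Figure D3:**
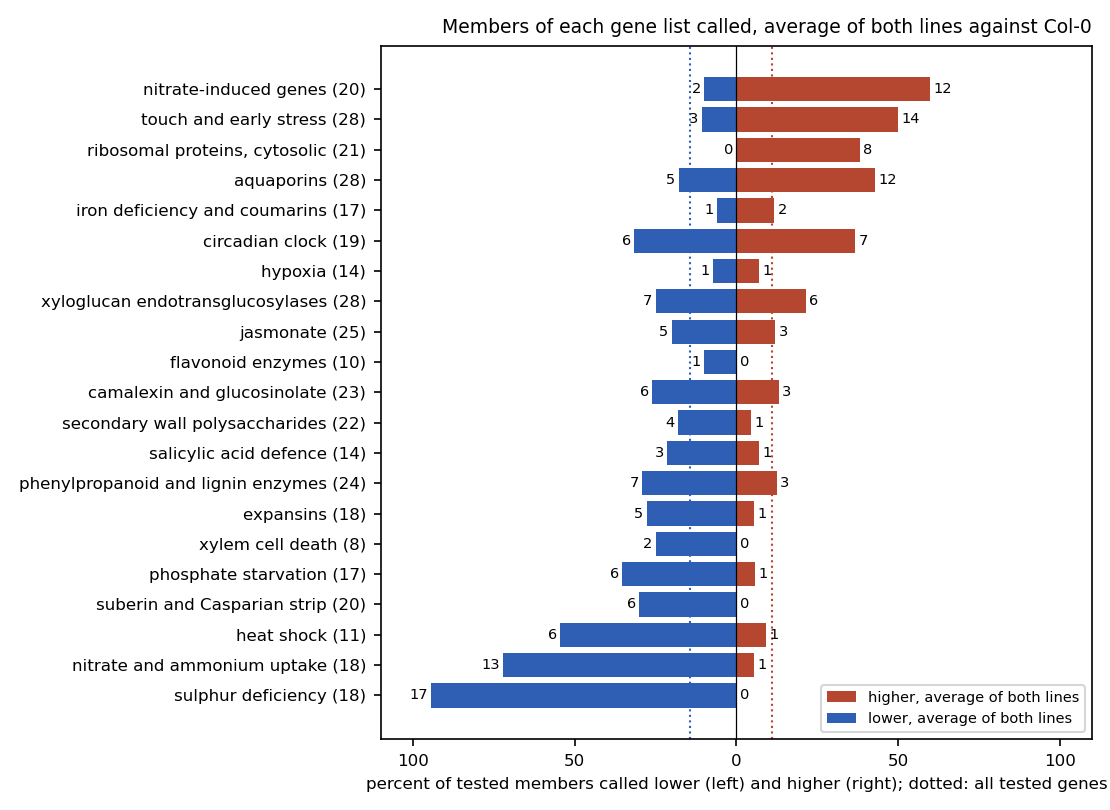
Percentage of the tested members of each gene list called higher (right of 0) and lower (left of 0) in the average of both lines over Col-0, with the number of genes at each bar, the number tested in brackets and the shares of all tested genes, 10.9% higher and 14.3% lower, as dotted lines. The sulphur deficiency list (17 of 18 lower) and the nitrate and ammonium uptake list (13 of 18 lower) reach furthest to the left, and the nitrate-induced list (12 of 20 higher) furthest to the right.

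Secondary wall genes, many of them known targets of MYB83, were mostly not called. Of 22 tested genes of cellulose, xylan and wall proteins, 1 was higher, 4 were lower and 17 did not pass, with a median of -0.18. The lower count is near the 14.3% of all tested genes, and the higher count is below the 10.9%. IRX15-L (AT5G67210, chr5:26818949-26820157), needed for xylan synthesis, had 17.8, 19.4 and 18.4 CPM in 35S:rMYB83, 14.9, 12.8 and 13.7 CPM in 35S:miR858, against 32.5, 75.9 and 54.8 CPM in Col-0. Its line libraries lay below all of Col-0, and the average was -1.76 ± 0.21 (SE; adjusted p = 0.00029). The cellulose synthase genes of the secondary wall, IRX1, IRX3 and IRX5, did not pass, with averages of -0.05 (adjusted p = 0.87), 0.17 (adjusted p = 0.53) and 0.05 (adjusted p = 0.86). GUX2, which adds glucuronic acid to xylan, fell by 1.36 ± 0.20 (SE; adjusted p = 0.0011), also without overlap. FRA8, a further xylan gene, rose by 0.64 ± 0.14 (SE; adjusted p = 0.0082), but 35S:miR858 overlapped Col-0 and the call was lost when both lines were fitted as 1 group (adjusted p = 0.0559). The count was unstable: 11 members were lower without Col-0 library 1 and 2 without Col-0 library 2 or Col-0 library 3. Summed xylem markers were 250 to 350 CPM in the lines and 169 to 317 CPM in Col-0, lowest in Col-0 library 1, and their part in this count was not tested.

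Genes of xylem cell death included a fall with no overlap. BFN1 (AT1G11190, chr1:3750066-3752780), a nuclease gene active in cells that die during development, had 2.46, 3.18 and 2.04 CPM in 35S:rMYB83, 1.8, 2.56 and 1.72 CPM in 35S:miR858, against 19.5, 22 and 18.7 CPM in Col-0. All 6 line libraries lay far below Col-0, the average was -3.13 ± 0.16 (SE; adjusted p = 3.5e-06), and the line difference was 0.34 (95% interval -0.2 to 0.88). SCPL48, a xylem peptidase gene, fell by 0.67 ± 0.14 (SE; adjusted p = 0.0078), and the other 6 of the 8 tested members did not pass. Of all tested genes 14.3% were lower. With scaling by total gene counts 4 members were lower, and without Col-0 library 2, 1 member was higher.

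Of 24 tested phenylpropanoid and lignin enzymes, 7 were lower, 3 were higher and 14 did not pass, with a median of -0.17. The higher count is near the 10.9% of all tested genes, of which 14.3% were lower. The list was uneven between the lines, with medians of 0.07 in 35S:rMYB83 and -0.50 in 35S:miR858. Line differences were called in 9 of the 24, 4 of them among those called in the average, against 4.05% of all tested genes. The 7 lower ones act in monolignol synthesis: 4CL1 and 4CL2, which activate the phenolic acids, HCT, CCOAOMT1, OMT1, CCR1 and CAD5. The 3 higher ones, laccase LAC11 and peroxidases PRX64 and PRX72, belong to enzyme families that polymerise lignin in the wall, while LAC4, LAC17 and PRX52 of the same families did not pass. 4CL1 (AT1G51680, chr1:19158746-19161737) had 271, 257 and 230.2 CPM in 35S:rMYB83, 125, 132 and 119 CPM in 35S:miR858, against 313, 467 and 464 CPM in Col-0. Both lines lay below Col-0 and 35S:miR858 lay below 35S:rMYB83, with an average of -1.22 ± 0.12 (SE; adjusted p = 0.00012) and a line difference of 1.01 (95% interval 0.68 to 1.35, adjusted p = 0.0057). CAD5, a cinnamyl alcohol dehydrogenase, had an average of -1.09 ± 0.12 (SE; adjusted p = 0.00025). PRX72 rose by 0.99 ± 0.19 (SE; adjusted p = 0.0042) with no overlap. Fitted with both lines as 1 group, 4 members were lower, and OMT1 and CCR1 did not pass (adjusted p = 0.15 and 0.09). Without Col-0 library 1, 11 members were lower, and without Col-0 library 2 or Col-0 library 3, 4 were. In the flavonoid list, 1 of 10 tested members was lower and none was higher in the average, while 5 differed between the lines. Of all tested genes, 14.3% were lower, 10.9% were higher and 4.05% differed between the lines. Without 35S:miR858 library 1, 3 were lower, and without Col-0 library 2 or Col-0 library 3, or with both lines fitted as 1 group, none was.

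Suberin genes fell in part. Of 20 tested genes of suberin and the Casparian strip, 6 were lower, none was higher and 14 did not pass, with a median of -0.42. Of all tested genes 14.3% were lower and 10.9% higher. The 6 were the fatty acyl reductases FAR1, FAR4 and FAR5, the elongase KCS2, the hydroxylase CYP86B1 and the exporter ABCG20, all of the aliphatic part of suberin. FAR4 (AT3G44540, chr3:16123426-16128030) had 32.1, 36 and 22.8 CPM in 35S:rMYB83, 18.23, 23.8 and 18.17 CPM in 35S:miR858, against 66.9, 134 and 85 CPM in Col-0. The lines did not overlap Col-0, and the average was -1.95 ± 0.21 (SE; adjusted p = 0.00018). FAR1 fell by 1.74 ± 0.22 (SE; adjusted p = 0.0004) in the same way. The Casparian strip genes CASP1 to CASP5 and their regulator MYB36 did not pass. Without Col-0 library 2, 2 members were higher, and with scaling by total gene counts 10 were lower. Summed endodermis markers were 235 to 351 CPM in the lines and 163 to 264 CPM in Col-0.

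Expansins, which loosen walls during growth, differed between the lines in all 6 members called. Of 18 tested, 5 were lower and 1 was higher in the average, with a median of -0.13, beside 14.3% lower and 10.9% higher of all tested genes. EXPB3 (AT4G28250, chr4:13999625-14002124) had 98.1, 154 and 132 CPM in 35S:rMYB83, 50.2, 41.6 and 52 CPM in 35S:miR858, against 258, 376 and 319.9 CPM in Col-0. The 3 groups were ordered without overlap, 35S:miR858 lowest and Col-0 highest, with an average of -2.02 ± 0.15 (SE; adjusted p = 2.1e-05) and a line difference of 1.42 (95% interval 1.0 to 1.83, adjusted p = 0.0039). EXPA6 and EXPA4 had the same order, with averages of -1.36 (adjusted p = 9.1e-06) and -1.24 (adjusted p = 7.6e-05). EXPA15 had 114, 172 and 139 CPM in 35S:rMYB83, 27.7, 23.3 and 23.5 CPM in 35S:miR858, against 116, 191 and 123 CPM in Col-0. Only 35S:miR858 lay below Col-0 there, the line difference was 2.52 (95% interval 2.03 to 3.0, adjusted p = 0.0011), and the average of -1.27 describes neither line (adjusted p = 0.437 with both lines fitted as 1 group). Without 35S:miR858 library 3, 2 members were higher, and with both lines fitted as 1 group 3 were lower.

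Among 28 tested xyloglucan endotransglucosylases, which cut and rejoin wall xyloglucan, 6 were higher and 7 lower, with a median of 0.04. The shares of all tested genes were 10.9% higher and 14.3% lower. XTH7 (AT4G37800, chr4:17775370-17777445) had 12.9, 14.1 and 14.3 CPM in 35S:rMYB83, 15.8, 4.86 and 13.8 CPM in 35S:miR858, against 66.9, 56.3 and 64.2 CPM in Col-0, an average of -2.31 ± 0.25 (SE; adjusted p = 0.00016). XTH9 fell by 1.45 ± 0.19 (SE; adjusted p = 0.00053), and XTH30 rose by 0.71 ± 0.12 (SE; adjusted p = 0.0024). The line libraries lay wholly to one side of Col-0 in each. XTH15 rose by 0.92 ± 0.13 (SE; adjusted p = 0.00087), more in 35S:miR858, with a line difference of -1.21 (95% interval -1.54 to -0.88, adjusted p = 0.0028). Fitted with both lines as 1 group, XTH15 did not pass (adjusted p = 0.0678), and 3 members of the list were higher and 4 lower. Without Col-0 library 3, 3 members were lower, and without Col-0 library 2, 35S:miR858 library 2, 35S:miR858 library 3 or 35S:rMYB83 library 2, 4 were.

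Many water channels rose. Of 28 tested aquaporins, 12 were higher, 5 were lower (3 with both lines fitted as 1 group) and 11 did not pass, with a median of 0.28. Beside them, 10.9% of all tested genes were higher and 14.3% lower, so the lower count is near its share. The higher ones are PIP channels of the plasma membrane and TIP channels of the vacuole. The 5 lower ones hold 3 NIP channels, a subfamily that also carries boric acid and other small solutes, with PIP1;4 and PIP2;5. PIP1;5 (AT4G23400, chr4:12220641-12222468) had 775, 847 and 658 CPM in 35S:rMYB83, 267, 335 and 288 CPM in 35S:miR858, against 97.5, 137 and 129.5 CPM in Col-0. Both lines lay above Col-0, 35S:rMYB83 the further, with an average of 1.97 ± 0.14 (SE; adjusted p = 1.9e-05) and a line difference of 1.36 (95% interval 1.02 to 1.69, adjusted p = 0.0018). TIP1;1 (AT2G36830, chr2:15445294-15446621) had 853, 926 and 875 CPM in 35S:rMYB83, 985, 1341 and 1028 CPM in 35S:miR858, against 445, 393 and 491 CPM in Col-0, an average of 1.17 ± 0.12 (SE; adjusted p = 0.00015). TIP1;2 and PIP1;1 rose by 1.02 (adjusted p = 0.00032) and 0.86 (adjusted p = 0.00036), with line differences of -0.02 (95% interval -0.32 to 0.28) and -0.3 (95% interval -0.56 to -0.04). All line libraries of these 3 lay above all of Col-0. PIP2;2 and PIP2;3 are near-identical neighbours, so the split of reads between them, and their separate changes of 0.85 and 1.28, are uncertain.

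Clock genes changed in both directions. Of 19 tested, 7 were higher, 6 were lower and 6 did not pass, with a median of -0.02, and 4 were higher with both lines fitted as 1 group. Among all tested genes, 10.9% were higher and 14.3% lower. The lower ones were CCA1, LHY, PRR9, RVE8 and LNK1, which are morning genes, and GI, which acts in the evening. The higher ones were TOC1, LUX, BOA, ELF4 and FKF1, which are evening genes, with PRR3 and CHE. LHY had 5.67, 2.93 and 2.15 CPM in 35S:rMYB83, 3.48, 1.41 and 2.26 CPM in 35S:miR858, against 9.47, 15.6 and 14.8 CPM in Col-0. The line libraries lay below Col-0 throughout, with an average of -2.2 ± 0.31 (SE; adjusted p = 0.00076). ELF4 had 148, 165 and 129 CPM in 35S:rMYB83, 66.2, 118 and 127 CPM in 35S:miR858, against 38.8, 36.8 and 51 CPM in Col-0, an average of 1.55 ± 0.21 (SE; adjusted p = 0.00065). BOA had 14.2, 13 and 15.1 CPM in 35S:rMYB83, 14.9, 25.4 and 18.9 CPM in 35S:miR858, against 2.67, 2.8 and 4.81 CPM in Col-0, an average of 2.3 ± 0.24 (SE; adjusted p = 0.00014). In ELF4 and BOA the lines lay above all of Col-0. GI fell by 1.05 ± 0.15 (SE; adjusted p = 0.00084) and was lower in 35S:miR858, with a line difference of 0.79 (95% interval 0.39 to 1.19, adjusted p = 0.04) that passed without Col-0 library 1 or 35S:rMYB83 library 3 but not without any other library. The sources used here do not give the time of day of harvest, and a difference in it cannot be told apart from the genotype. BOA overlaps a gene on the opposite strand.

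The promoters of clock genes were searched for the evening element, AAATATCT on either strand, which many evening genes carry. It occurred within 250 bases before the gene start in 6 of the 19 tested members, against 4.94% of all tested genes, and 5 of them were called. All 5 were higher, BOA among them, and none of the 6 lower members had a match in this window. The promoter of BOA (chr5:24003638-24003887, plus strand) is shown from RefSeq TAIR10.1 with the match in capitals, since this gene had the largest rise of the list.
BOA: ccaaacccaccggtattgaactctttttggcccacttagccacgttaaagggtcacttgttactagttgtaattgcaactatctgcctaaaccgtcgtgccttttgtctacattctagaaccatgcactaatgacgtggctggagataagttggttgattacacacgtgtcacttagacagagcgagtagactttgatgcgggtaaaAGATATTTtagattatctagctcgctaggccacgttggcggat
BOA holds 1 match, starting at base -43 from the gene start. Across all genes called, the element occurred in 5.69% of the higher and 5.93% of the lower promoters, close to the share in all tested genes.

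Of 28 tested touch and early stress genes, 14 were higher, 3 were lower and 11 did not pass. Beside them, 10.9% of all tested genes were higher and 14.3% lower, so the lower count is near its share. None of those called differed between the lines at the threshold in the fit used here. Few called genes did so anywhere, 421 of 4912, so this does not show that the lines were alike. The list had a median average of 1.07, and the medians of the single lines were 0.68 in 35S:rMYB83 and 1.51 in 35S:miR858. ERF6 (AT4G17490, chr4:9752824-9754161), an ethylene-response factor induced early in stress, had 50.7, 42.4 and 44.8 CPM in 35S:rMYB83, 85.1, 122 and 64.6 CPM in 35S:miR858, against 21.6, 8.05 and 15 CPM in Col-0. All line libraries lay above all of Col-0, with an average of 2.11 ± 0.30 (SE; adjusted p = 0.00085). TCH3, a calmodulin-like gene named for its response to touch, had 48.6, 48.9 and 71.2 CPM in 35S:rMYB83, 88.6, 169 and 90.2 CPM in 35S:miR858, against 36.3, 18.5 and 26.4 CPM in Col-0, an average of 1.58 ± 0.28 (SE; adjusted p = 0.0029). ZAT10 and SZF1, zinc finger genes of early stress, rose by 1.44 (adjusted p = 0.013) and 1.67 (adjusted p = 0.011). CBF3, a regulator of cold responses, fell by 2.75 ± 0.49 (SE; adjusted p = 0.003). Such levels varied widely among replicates, ZAT10 having 134, 109 and 96 CPM in 35S:rMYB83, 239, 266 and 123 CPM in 35S:miR858, against 90.8, 30.9 and 47.9 CPM in Col-0. Without Col-0 library 2, 7 members were higher, without Col-0 library 3, 5 were, and without Col-0 library 1, Col-0 library 3 or 35S:rMYB83 library 3 only 1 was lower. The line difference passed with DESeq2 in ERF6 (-0.99, adjusted p = 0.0253) and TCH3 (-1.05, adjusted p = 0.00976). It also passed in ERF6 without Col-0 library 2 (-0.98, adjusted p = 0.0473). In DDF1 of the same list it passed without 35S:miR858 library 3 (-2.45, adjusted p = 0.00964). TCH3 and CBF3 overlap genes on the opposite strand.

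Of 11 tested heat shock genes, 6 were lower, 1 was higher and 4 did not pass, with a median of -0.91. Beside them, 14.3% of all tested genes were lower and 10.9% higher, so the higher count is near its share. HSP70 (AT3G12580, chr3:3991117-3993886), a chaperone, had 48, 48 and 41.4 CPM in 35S:rMYB83, 42.7, 27.6 and 31 CPM in 35S:miR858, against 99.8, 119 and 119 CPM in Col-0. The lines lay below Col-0 without overlap, and the average was -1.52 ± 0.13 (SE; adjusted p = 4.4e-05). HSFA2, the heat-inducible transcription factor that sustains the response, fell by 2.48 ± 0.35 (SE; adjusted p = 0.0008). HSP101, a disaggregase, fell by 0.91 ± 0.11 (SE; adjusted p = 0.00042), and HSP17.6, a small chaperone, fell by 2.9 ± 0.52 (SE; adjusted p = 0.0031). The 1 higher member, HSFA7A, did not pass with scaling by total gene counts, with both lines fitted as 1 group, or without any 1 of Col-0 library 2, Col-0 library 3, 35S:miR858 library 1, 35S:miR858 library 3, 35S:rMYB83 library 2 or 35S:rMYB83 library 3.

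Of 23 tested genes of camalexin and glucosinolate synthesis, 3 were higher, near the 10.9% of all tested genes, 6 were lower and 14 did not pass. Among all tested genes, 14.3% were lower. CYP71A12 (AT2G30750, chr2:13099486-13101371), a P450 of indolic defence compounds, had 7.56, 3.91 and 7.93 CPM in 35S:rMYB83, 0.839, 2.56 and 2.9 CPM in 35S:miR858, against 124, 154 and 228 CPM in Col-0. Every line library lay far below every Col-0 library, with an average of -5.51 ± 0.29 (SE; adjusted p = 3.6e-06), although reads of its near-identical neighbour CYP71A13 may be shared with it. The line difference of CYP71A12 did not pass in the fit used here. It passed with DESeq2 (1.60, adjusted p = 0.0011) and with the replicate number in the model (1.59, adjusted p = 0.0405). CYP81F2, which modifies indole glucosinolates, fell by 1.87 ± 0.19 (SE; adjusted p = 0.00012), while CYP79B3, which makes their precursor, rose by 0.91 ± 0.17 (SE; adjusted p = 0.0031). Without Col-0 library 1, 9 members were higher and 3 lower, without Col-0 library 2 only 1 was higher, and without 35S:miR858 library 2, 35S:miR858 library 3 or 35S:rMYB83 library 3, 3 were lower.

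The jasmonate list had 3 higher and 5 lower of 25 tested, near the shares of all tested genes. The repressor genes JAZ3, JAZ4 and JAZ12 were lower without overlap, with averages of -1.12 (adjusted p = 0.00024), -1.26 (adjusted p = 0.00043) and -0.46 (adjusted p = 0.0087). Between none and 5 members were higher when single libraries were left out: none without Col-0 library 2, Col-0 library 3 or 35S:rMYB83 library 2, 1 without 35S:miR858 library 1 and 5 without 35S:miR858 library 3. The salicylic acid list had 1 higher and 3 lower of 14, also near the shares of all tested genes, 10.9% higher and 14.3% lower. Without Col-0 library 2 none was called, without Col-0 library 3 there were 3 higher and none lower, without 35S:rMYB83 library 1 or 35S:rMYB83 library 3 none was lower, and without 35S:miR858 library 1 or 35S:miR858 library 3 only 1 was. The hypoxia list had 1 higher and 1 lower of 14, below those shares. HRE1, a hypoxia-response factor, rose by 0.91 ± 0.14 (SE; adjusted p = 0.0014), and without Col-0 library 1, 2 members were higher and 2 lower. Without 35S:miR858 library 1, 8 hypoxia members were lower, and without Col-0 library 2, Col-0 library 3, 35S:miR858 library 2, 35S:rMYB83 library 1 or 35S:rMYB83 library 3 none was.

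Of 21 tested cytosolic ribosomal protein genes, 8 were higher by small amounts and none was lower, with a median of 0.28. Among all tested genes, 10.9% were higher and 14.3% lower. RPS6B had 415, 439 and 486 CPM in 35S:rMYB83, 535, 535 and 511 CPM in 35S:miR858, against 363, 343 and 336 CPM in Col-0, an average of 0.48 ± 0.08 (SE; adjusted p = 0.0014) and no overlap. Scaled by total gene counts, only 1 of the 21 was higher. Leaving out Col-0 library 3 left 3, and leaving out 35S:miR858 library 1, 35S:miR858 library 2 or 35S:rMYB83 library 3 left 4. Among the cell type markers, none of 19 green tissue, 8 xylem, 7 root hair, 4 root cap and 10 meristem genes passed. Of 8 tested phloem markers 2 were higher and 2 lower: SUC2, which loads sucrose, and SWEET11 and SWEET12, which export it, had averages of -1.08 (adjusted p = 0.00092), 1.12 (adjusted p = 0.0012) and 2.76 (adjusted p = 1.5e-05), and SEOR2, of the sieve element, was the other lower one. SEOR2 did not pass without 1 of Col-0 library 2, Col-0 library 3, 35S:miR858 library 2 or 35S:miR858 library 3, and with scaling by total gene counts 4 phloem markers were lower. Of 7 endodermis markers 1 was higher, SCR, a regulator of endodermis identity. SCR did not pass with scaling by total gene counts, nor without 1 of Col-0 library 2, Col-0 library 3, 35S:rMYB83 library 3 or any 35S:miR858 library, and the count ranged from 0 to 5 over the settings tried, the 5 with the green tissue covariate.

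**Figure D4:**
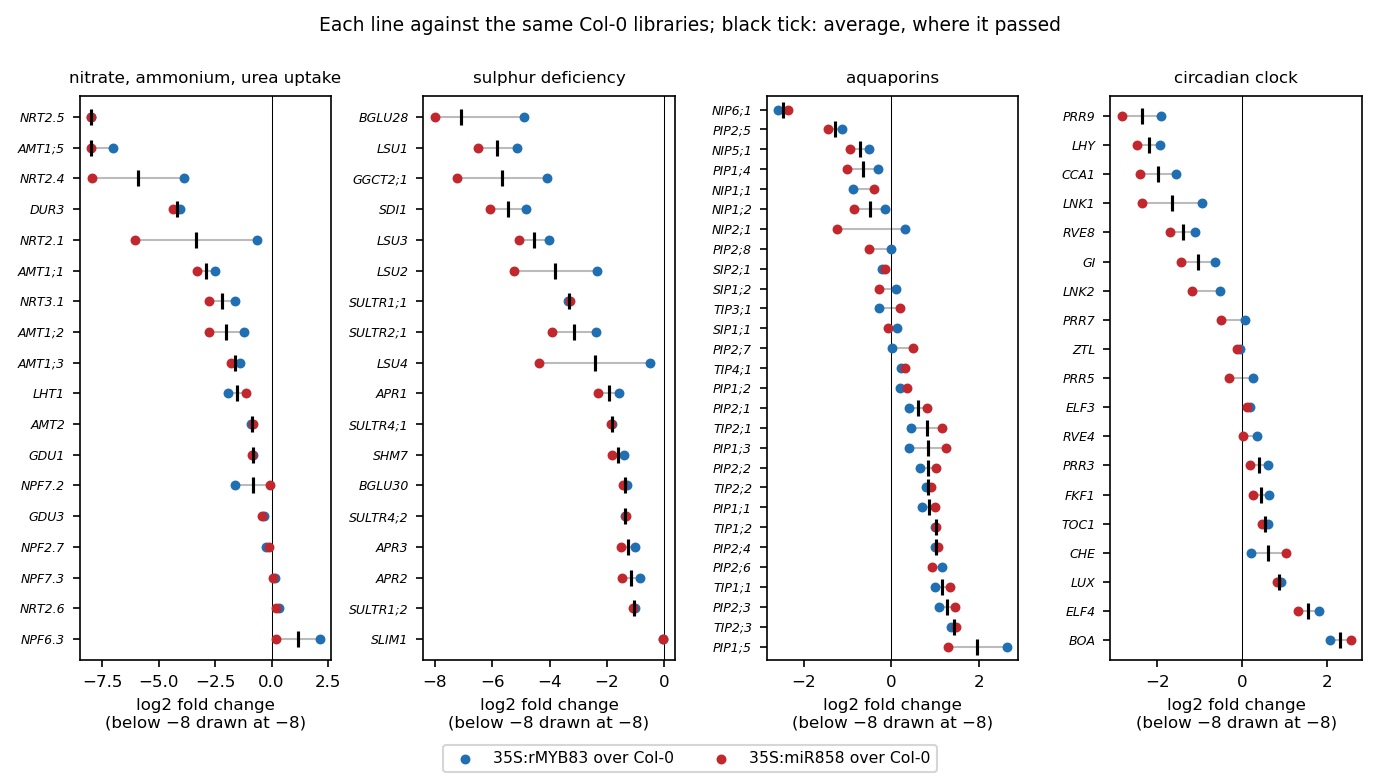
Log2 fold change over the same Col-0 libraries of every tested member of 4 lists (nitrogen uptake, sulphur deficiency, aquaporins and clock), with a blue point for 35S:rMYB83, a red point for 35S:miR858, a grey line between them and a black tick at the average where it passed. Values below -8 are drawn at -8. The points of SULTR4;1 and TIP1;2 nearly coincide, while those of NRT2.1, LSU4 and PIP1;5 lie well apart.

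Over all genes, list members included, those with the largest shared change were ranked among those called in the average, not called in the line difference, at 1 CPM or more on average and with no overlap between the lines and Col-0. TPX2 (AT1G65970, chr1:24557372-24558322), a thioredoxin-dependent peroxidase gene, had an even rise, with 210.2, 209.7 and 221 CPM in 35S:rMYB83, 219.8, 207 and 211 CPM in 35S:miR858, against 31.3, 29.6 and 35.1 CPM in Col-0. The 6 line libraries were nearly alike and far above Col-0, with an average of 2.74 ± 0.08 (SE; adjusted p = 2.6e-07) and a line difference of 0.01 (95% interval -0.18 to 0.19). TPX2 overlaps opposite-strand genes and has close relatives beside it, so some of its reads may belong to them. AT5G63250, annotated with a carbohydrate-binding X8 domain, had 2.84, 2.81 and 3.06 CPM in 35S:rMYB83, 4.08, 3.58 and 5.37 CPM in 35S:miR858, against 0.258, 0.181 and 0.241 CPM in Col-0, an average of 3.89 ± 0.31 (SE; adjusted p = 3e-05). AT5G66650, annotated as a calcium uniporter, had 24.2, 25.8 and 25.2 CPM in 35S:rMYB83, 18.7, 30.9 and 18 CPM in 35S:miR858, against 4.13, 1.27 and 2.77 CPM in Col-0, an average of 3.11 ± 0.32 (SE; adjusted p = 0.00014), and it too overlaps an opposite-strand gene. CLE5, a gene for a small signalling peptide, had 11.2, 16.6 and 8.95 CPM in 35S:rMYB83, 12.1, 11.3 and 8.17 CPM in 35S:miR858, against 1.46, 0.724 and 2.77 CPM in Col-0, an average of 2.82 ± 0.37 (SE; adjusted p = 0.00056). That the lines did not overlap Col-0 in these genes follows from the ranking rule.

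UGT74E2, which attaches glucose to the auxin indole-3-butyric acid, rose by 2.95 ± 0.45 (SE; adjusted p = 0.0012). ZAT7, a zinc finger gene, had 73 reads in the lines against 2 in Col-0, a ratio of 23.7 (exact 95% counting interval 6.32 to 199). AT2G04050, annotated as a MATE efflux transporter, had 16.6, 5.5 and 10.4 CPM in 35S:rMYB83, 1.68, 7.29 and 28.4 CPM in 35S:miR858, against 1.12, 0.452 and 0.12 CPM in Col-0, an average of 4.23 ± 0.98 (SE; adjusted p = 0.011). DDF1, a CBF-related transcription factor gene, had 1.89, 1.59 and 1.93 CPM in 35S:rMYB83, 7.43, 12.5 and 0.752 CPM in 35S:miR858, against 0.258, 0.0905 and 0.241 CPM in Col-0, an average of 4.08 ± 0.95 (SE; adjusted p = 0.011). ZAT7 and DDF1 are members of the touch and early stress list. AT2G04050 and DDF1 varied widely within the lines, and without Col-0 library 2 neither passed (adjusted p = 0.0513 for AT2G04050 and 0.0532 for DDF1). The remaining 4 of the 12 highest, AT5G24640, AT2G41730, AT1G05575 and ERF13, had averages between 2.67 and 3.40. ERF13 is an ethylene-response factor, and AT1G05575 overlaps an opposite-strand gene.

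The 12 lowest shared genes include NRT2.5, AMT1;5 and the sulphur-responsive glucosidase BGLU28, already among the nutrient lists. BGLU28 had 0.945, 0.122 and 0 CPM in 35S:rMYB83, 0, 0 and 0 CPM in 35S:miR858, against 3.62, 13.3 and 9.15 CPM in Col-0, at least 72.6-fold lower in 35S:miR858 than in Col-0. AT5G38910, annotated as a cupin, had 1 read in the lines against 517 in Col-0, so it was 797-fold lower (interval 142 to 31540). AT4G01390, annotated as a TRAF-like protein and overlapping an opposite-strand gene, had 2 reads against 290, and FLP1, a flowering-promoting factor-like gene, had 3 against 259. SWEET14, a sugar transporter gene, had 0.189, 0.367 and 0.113 CPM in 35S:rMYB83, 0, 0.128 and 0 CPM in 35S:miR858, against 2.15, 20.6 and 11.3 CPM in Col-0. CYP82C2, a P450 gene that acts in the synthesis of an indole cyanogenic defence compound, had 0, 0.733 and 0.793 CPM in 35S:rMYB83, 0, 0.512 and 0.537 CPM in 35S:miR858, against 26.1, 38.4 and 56.7 CPM in Col-0. All line libraries lay below 1 CPM and all of Col-0 lay far above, with an average of -6.43 ± 0.42 (SE; adjusted p = 1e-05). CYP716A2, a P450 of the triterpene-oxidising family, had 3.4, 5.25 and 3.06 CPM in 35S:rMYB83, 0.48, 0.512 and 0.645 CPM in 35S:miR858, against 34.1, 242 and 105 CPM in Col-0, an average of -6.41 ± 0.57 (SE; adjusted p = 6.2e-05), and its neighbour AT5G36130, also annotated as a P450, -6.61. All libraries of 35S:rMYB83 lay above those of 35S:miR858 for CYP716A2. Its line difference did not pass in the fit used here, but passed with DESeq2 (2.83, adjusted p = 0.0108) and without Col-0 library 1 (2.81, adjusted p = 0.0338). It also passed with the replicate number in the model (2.75, adjusted p = 0.044), and that of AT5G36130 passed with DESeq2 (3.13, adjusted p = 0.0162). AT5G04120, annotated in the phosphoglycerate mutase family, fell by 6.29 ± 0.52 (SE; adjusted p = 4.1e-05) and overlaps an opposite-strand gene. AT3G59580, an RWP-RK family gene, had 0.378, 0 and 0.113 CPM in 35S:rMYB83, 0.12, 0.128 and 0.43 CPM in 35S:miR858, against 13.7, 62.7 and 40.8 CPM in Col-0.

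Some genes moved in both lines by different amounts. SWEET12 had 38.4, 41.2 and 52.1 CPM in 35S:rMYB83, 60.6, 80.4 and 88.4 CPM in 35S:miR858, against 8.78, 6.69 and 10.4 CPM in Col-0. Both lines lay above Col-0, 35S:miR858 the higher, with a line difference of -0.8 (95% interval -1.2 to -0.39, adjusted p = 0.042) that did not pass with scaling by total gene counts, nor without 1 of 35S:miR858 library 2, 35S:miR858 library 3, 35S:rMYB83 library 1 or 35S:rMYB83 library 2. GGCT2;1 (AT5G26220, chr5:9162969-9164884), which degrades glutathione and is induced by sulphur shortage, had 2.84, 2.57 and 2.15 CPM in 35S:rMYB83, 0.12, 0.128 and 0.537 CPM in 35S:miR858, against 37, 49.7 and 42 CPM in Col-0. The 3 genotypes were fully separate, with an average of -5.66 ± 0.20 (SE; adjusted p = 6.7e-07) and a line difference of 3.11 (95% interval 2.19 to 4.04, adjusted p = 0.004). AT5G37990, annotated as a methyltransferase, had 53.3, 101 and 37.1 CPM in 35S:rMYB83, 18.23, 12.7 and 16.4 CPM in 35S:miR858, against 337, 618 and 534 CPM in Col-0, with an average of -3.96 ± 0.29 (SE; adjusted p = 1.9e-05) and a line difference of 2.01 (95% interval 1.2 to 2.83, adjusted p = 0.015). That difference did not pass without 35S:miR858 library 2 (adjusted p = 0.0766). AT1G20680, annotated as a Golgi organization-like protein, and SESA4, a seed storage albumin gene, rose mainly in 35S:rMYB83, with line differences of 3.8 (95% interval 3.07 to 4.53) and 3.42 (95% interval 2.15 to 4.69). The SESA4 difference did not pass without 35S:rMYB83 library 2 (adjusted p = 0.0555). Over both lines their levels were 31.8-fold (interval 10.7 to 156) and 34.8-fold (interval 11.7 to 171) that of Col-0, from 3 Col-0 reads each.

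In 20 genes with a called line difference, the 2 line means lay at least 2-fold to either side of Col-0. This class rests on fitted means, and neither line had to differ from Col-0 by a test. RD20, a caleosin gene induced by drought and abscisic acid, had 4.35, 5.25 and 3.4 CPM in 35S:rMYB83, 0, 0 and 0.107 CPM in 35S:miR858, against 1.72, 0.271 and 0 CPM in Col-0. 35S:rMYB83 lay above every other library, and 35S:miR858 was at or near 0, as was Col-0 library 3. GolS2, a galactinol synthase gene of drought and cold responses, had 7.37, 6.6 and 2.95 CPM in 35S:rMYB83, 0.24, 0.384 and 0.107 CPM in 35S:miR858, against 1.72, 0.362 and 0.843 CPM in Col-0, with a line difference of 4.47 (95% interval 2.98 to 5.97, adjusted p = 0.0061). BGLU47, a glucosidase gene, had 7.37, 9.04 and 7.71 CPM in 35S:rMYB83, 0.6, 0.128 and 0.537 CPM in 35S:miR858, against 5.42, 3.8 and 2.29 CPM in Col-0, with a line difference of 4.18 (95% interval 3.2 to 5.17, adjusted p = 0.0017). Its average of -1.04 (adjusted p = 0.044) lay between a higher 35S:rMYB83 mean and a lower 35S:miR858 mean, and it lost its call without any 1 library other than Col-0 library 3. AO4, an aldehyde oxidase gene, had 68 reads in 35S:rMYB83, 1 in 35S:miR858 and 3 in Col-0. Its line difference was 5.84 (95% interval 3.75 to 7.92, adjusted p = 0.0083), and its lower level in 35S:miR858 than in Col-0 rests on those few reads. In RD20 and GolS2, libraries of 35S:miR858 overlapped those of Col-0. For all genes named here, the average over both lines is not a shared change. The RD20 difference, 6.35 (95% interval 3.72 to 8.97, adjusted p = 0.017), did not pass without 1 of 35S:miR858 library 1, 35S:miR858 library 2, 35S:miR858 library 3 or 35S:rMYB83 library 2.

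Opposite-strand genes also overlap F6'H1, PLDP2, IRX15-L, FRA8, SCPL48, 4CL1, CCR1, FAR1, FAR4, KCS2, XTH15, HSP101, JAZ12, HRE1 and BGLU47, whose counts carry the same limit as APR1. The median length of the longest transcript was 1722.5 bases for higher and 1747 bases for lower genes, against 1747 for all tested genes, and the median GC content was 41.6% and 40.9%, against 41.3%. The higher genes were more abundant, with a median of 45.5 CPM over all libraries, against 15.5 CPM for lower genes and 18.3 CPM for all tested genes. Genes at least 2-fold higher were shorter, with a median of 1448 bases and 2 exons, against 1747 bases and 4 exons for all. Those at least 2-fold lower were also shorter, with 1624 bases and 3 exons. The median level was 18.5 CPM for genes at least 2-fold higher, near that of all tested genes, and 7.16 CPM for those at least 2-fold lower. The shares on the 5 chromosomes were close to those of all tested genes, from 14.3% to 26.6% for higher genes.

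**Figure D5:**
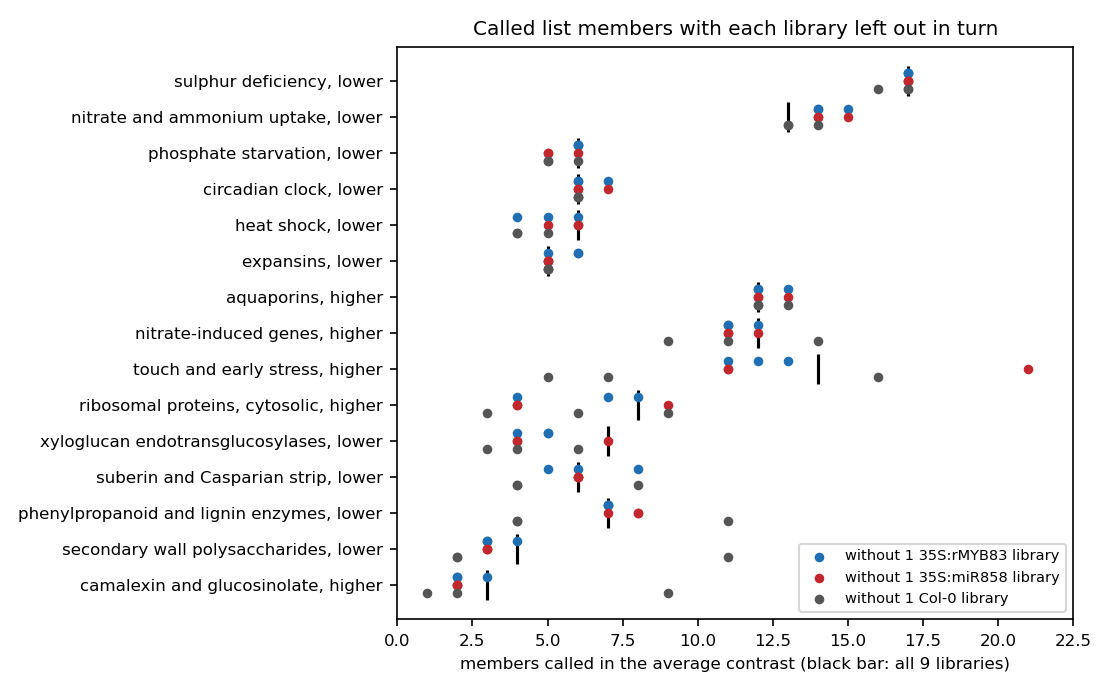
Number of members of 15 list counts called in the average of both lines over Col-0 when each library was left out in turn (blue, red and grey points for a left-out 35S:rMYB83, 35S:miR858 and Col-0 library), with a black bar at the count with all 9 libraries. The sulphur deficiency count stayed at 16 to 17 lower and the aquaporin count at 12 to 13 higher, while the touch and early stress count ranged from 5 to 21 higher.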

How the data were processed

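Poly(A) mRNA of roots was sequenced in 9 libraries, 3 of each genotype. The authors deposited raw read counts per gene for each library, whole numbers that are not normalized. Per the submitters' processing notes, FastQC, Trimmomatic, TopHat2 2.0.14 and HTSeq were used with the build TAIR10; the sources used here state no strand setting. Summary entries of the counter (reads in no gene or not placed uniquely) were left out of library sizes and tests, and reads outside genes came to 3.62% to 5.96% of a library. Gene names, positions and sequences come from RefSeq TAIR10.1. Of 28775 loci, 19496 passed filterByExpr, and TMM factors ranged from 0.93 to 1.12. A quasi-likelihood model with 1 mean per genotype was fitted in edgeR 4.0.16 (R 4.3.3), with the average contrast and the line difference (35S:rMYB83 minus 35S:miR858), Benjamini-Hochberg adjusted over all tested genes. CPM are on TMM-scaled library sizes. The script was tested on simulated data. Replicates differed by more than sampling noise (chi-square per degree of freedom 6.49 to 23.8).

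The gene lists and the genes described were chosen with earlier results of these data known. Named genes were the introduced genes, the 12 highest and 12 lowest shared genes, the 4 highest and 4 lowest called in both contrasts, the 4 largest opposite changes, and up to 4 members of each list by smallest adjusted p; some whose call rests on single libraries are not printed. Other list members were named after their values were seen. Lists were described by counts and medians, with no test of a list. Alternatives were other scalings, no filter, DESeq2 1.42.0, a model of 2 groups, a green tissue covariate, a replicate block and leaving out libraries.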

Additional observations from a re-analysis of the deposited data

Results flagged for a closer look

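The lines differed from each other in 789 genes by the test of the line difference itself (edgeR, adjusted p under 0.05), and the genes below are those described here that did so. All values are log2 differences of 35S:rMYB83 over 35S:miR858. The introduced genes separated the lines as labelled: MYB83 by 6.17, and MIR858a by 547 reads in 35S:miR858 against 0 in 35S:rMYB83, where no fold can be fitted, only the bound of at least 160-fold higher in 35S:miR858.

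Genes with a difference on the same side of Col-0 in both lines, or with 1 line near Col-0, included the sulphur genes GGCT2;1 at 3.11 and APR1 at 0.73, and the expansins EXPA15 at 2.52, EXPB3 at 1.42, EXPA4 at 1.25 and EXPA6 at 1.14. The phenylpropanoid genes were 4CL1 at 1.01, F6'H1 at 0.94, CCR1 at 0.75 and CAD5 at 0.73. The CAD5 difference did not pass without 1 of 35S:miR858 library 2, 35S:miR858 library 3, 35S:rMYB83 library 1 or 35S:rMYB83 library 2 (adjusted p = 0.0595 to 0.09). PIP1;5, a water channel, was at 1.36 and GI, of the clock, at 0.79. Higher in 35S:miR858 were the wall enzyme gene XTH15 at -1.21, the sugar exporter SWEET12 at -0.80 and the defence gene SAG101 at -0.77.

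Among genes with large averages in both contrasts, AT1G20680 was at 3.80, AT4G32950, a phosphatase 2C family gene, at 3.59, SESA4 at 3.42, the RNA gene AT2G01422 at 2.86, the galactinol synthase GolS4 at 2.25 and AT5G37990 at 2.01. The AT4G32950 difference did not pass with the replicate block (adjusted p = 0.065) or without 1 of any library other than Col-0 library 1 and 35S:rMYB83 library 1. The GolS4 difference did not pass with RLE size factors (adjusted p = 0.0507) or without 1 of any library other than Col-0 library 1 and Col-0 library 3, and GolS4 overlaps a gene on the opposite strand. Those with the line means on opposite sides of Col-0 were RD20 at 6.35, AO4 at 5.84, GolS2 at 4.47 and BGLU47 at 4.18.

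Reads outside annotated genes, which no comparison used, were 5.21% ± 0.616 in the lines (SD, n = 6) and 4.02% ± 0.341 in Col-0 (SD, n = 3), a difference of 1.198 percentage points, with every line library above every Col-0 library. The exact two-sided permutation p was 0.0238, the smallest that the 84 splits of 9 libraries allow. Its part in the gene results was not tested.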

How the results depend on the processing

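With scaling by total gene counts, 1233 genes were higher and 4274 lower in the average, and 1022 lay above and 3955 below Col-0 without overlap. DESeq2 found 575 genes higher in 35S:miR858 than in 35S:rMYB83, and 705 called both in the average and between the lines. Line differences that did not pass in the fit used here passed with DESeq2 in further genes described above. They were MGD3 (2.33, adjusted p = 0.0466), NPC4 (1.28, adjusted p = 0.0168), FRA8 (0.61, adjusted p = 0.00995) and JAZ3 (0.59, adjusted p = 0.0185). OMT1 (0.53, adjusted p = 0.0131) and 4CL2 (0.48, adjusted p = 0.0174) were others.

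Without Col-0 library 1 and 35S:rMYB83 library 1, the libraries highest in green tissue markers, 179 genes were higher in 35S:miR858, and 3836 lay above and 4027 below Col-0 without overlap. Leaving out 1 library at a time gave 1389 to 2166 genes higher and 1947 to 2951 lower in the average, 168 to 525 called in both contrasts, 2982 to 4592 in the average alone and 2348 to 3745 with the narrow line interval. It gave 2065 to 3250 genes above and 2812 to 3808 below Col-0 without overlap, 84 to 398 higher in 35S:miR858 and 238 to 594 higher in 35S:rMYB83. Other settings kept the average counts within 1.5 times: size factors of the RLE kind gave 2234 higher and 2682 lower, no filter 2038 and 2823, DESeq2 2315 and 2551, both lines as 1 group 1696 and 2302, and the green tissue covariate 2653 and 3137.

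Replicate numbers are shared across genotypes, but same-numbered libraries did not all deviate together (correlations of -0.257 to 0.548). The correlations of 35S:rMYB83 with Col-0 were positive at each number (0.548, 0.241 and 0.141). Libraries of different numbers were not compared, so whether the numbers pair the libraries cannot be told. With a replicate block, 2194 genes were higher and 2808 lower. BGLU47, whose lines lie on opposite sides of Col-0, had an average of 0.10 with both lines as 1 group (adjusted p = 0.958), against -1.04 otherwise. Of 111 named genes called in the average, 23 lost the call under at least 1 setting, and of 27 called between the lines, 8 did, and no other of those called changed sign. Gene lists held 55 to 87 higher and 82 to 113 lower members in all when single libraries were left out. Counts of a few reads limit the folds of genes near 0.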

Other observations

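Gene families outside the lists were counted by their annotated product, over 121 families with at least 15 tested members, beside 10.9% higher and 14.3% lower of all tested genes. They were picked here after their values were seen, and none was tested. Of 102 genes annotated as leucine-rich repeat protein kinases, which include many cell-surface receptors, 42 were lower and 5 higher in the lines. S-locus lectin kinases, another receptor family, had 8 lower and 1 higher of 19. Dof zinc finger transcription factors had 7 lower and none higher of 16, and proline-rich family proteins had 7 lower and none higher of 15.

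Among transporter families, nodulin MtN21/EamA-like transporters had 15 lower and 5 higher of 38, major facilitator superfamily proteins 30 lower and 12 higher of 97, and transmembrane amino acid transporters 7 lower and none higher of 22, while mitochondrial substrate carriers had 3 lower and 5 higher of 35. UDP-glycosyltransferases, which attach sugars to hormones and secondary metabolites, had 20 lower and 4 higher of 68, and HXXXD-type acyltransferases 13 lower and 2 higher of 44. Berberine-type FAD-binding proteins had 9 lower and 5 higher of 18. Large families with more higher than lower members were the pentatricopeptide repeat superfamily, whose proteins act on organelle RNA, with 1 lower and 13 higher of 180, and the tetratricopeptide repeat-like superfamily, with 5 lower and 18 higher of 254. Their higher shares, 7.22% and 7.09%, were below the 10.9% of all tested genes.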
